A study of Mus musculus with 20 samples.

Results

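Microglia are the resident macrophages of the brain, and 34 genes that mark them and the related macrophages of vessels and meninges were followed in RNA from the mouse BNST, the bed nucleus of the stria terminalis, which lies in the basal forebrain and is studied for anxiety. The 34 genes were taken from a list by symbol, with symbols matched from Ensembl identifiers, and all 34 were among the 19214 genes of the count tables. Mice in which repeated restraint served to model anxiety were set beside controls in both sexes, in 4 groups of 5 libraries each: susceptible males, male controls, susceptible females and female controls. All were housed free of specific pathogens. Strain, age and the way in which susceptibility was decided are not given in the labels, which enter the sex under genotype and name no genetic change in any group. Whether each library stands for its own animal is not stated, so p-values measure only the spread between libraries, which may be technical. Each library was made from polyadenylated RNA of whole tissue. In such bulk RNA, fewer cells of a type and less RNA per cell cannot be told apart.

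Microglia depend on signalling through the CSF1 receptor, and in the resting brain they survey their surroundings with fine processes whose movement is guided by receptors for ATP and ADP and for the neuronal chemokine fractalkine. They also supply most of the C1q made in the brain, the recognition molecule that opens the classical complement pathway and that can tag synapses for removal. Receptors without a signalling tail of their own, such as TREM2, pass their signal through adaptors with an ITAM, a short tyrosine motif. Macrophages at the brain's borders, along vessels and in the meninges, share many of these genes and are told apart by scavenger receptors such as MRC1 and CD163. Expression levels below are CPM, computed from counts over library sizes scaled by the TMM method of edgeR, and changes are log2 fold changes ± standard error from the quasi-likelihood test of edgeR.

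Total counts ranged over the 20 libraries from 14637636 to 17862840. No pair of libraries of a group agreed within sampling noise (the smallest chi-square per degree of freedom was 5.77). None was therefore treated as a repeat of another, and each was counted as 1 sample. This check cannot tell separate animals from separate preparations of 1 animal. All 16 genes listed as markers of BNST and other subpallial neurons had counts in every library, with Gad2, which makes the transmitter GABA, between 454 and 989 CPM. Markers of blood monocytes and neutrophils were near 0: their 14 genes summed to 0.759 to 2.1 CPM in susceptible males, 1.09 to 1.95 CPM in male controls, 0.481 to 1.37 CPM in susceptible females and 0.738 to 1.36 CPM in female controls. All but 1 of the 14, Ccr2, were at 0 in at least 3 libraries, and none passed the filter on low counts. All 34 microglia and macrophage genes passed it, together with 14884 genes in all.

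Promoter sequence was available for 27 of the 34 genes, from RefSeq on build GRCm38.p6, as windows that run from 250 bases before to 50 bases after the transcription start. PU.1, the ETS-family factor on which the macrophage lineage depends, binds purine-rich elements, and 3 motifs were searched on both strands. The 8-letter string GAGGAAGT lay in the windows of 5 of the 27 genes (18.5%), against 3.69% of the 27025 genes with a window. Its inner string GGAAGT, which every GAGGAAGT also holds, lay in the windows of 15 of the 27 (55.6%), against 26.5% of genes. The composite ETS and IRF element, some spellings of which also hold GGAAGT, lay in the window of 1 gene, Cd68 (3.7%, against 3.16%). Such a match is a description of the letters and shows no binding, and the windows of genes with several starts are counted together. The 5 stretches of 100 bases below show GGAAGT, or its reverse complement ACTTCC, in capitals, 1 gene from each of 5 roles, where the stretch holds no annotated exon. They are given on the strand of the gene.
Siglech, chr7:55767982-55768081, plus strand: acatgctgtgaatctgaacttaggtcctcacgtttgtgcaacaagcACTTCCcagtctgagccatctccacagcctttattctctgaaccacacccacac
Sall1, chr8:89042989-89043088, minus strand: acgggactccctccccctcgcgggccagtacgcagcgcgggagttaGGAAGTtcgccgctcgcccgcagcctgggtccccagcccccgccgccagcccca
C1qb, chr4:136886201-136886300, minus strand: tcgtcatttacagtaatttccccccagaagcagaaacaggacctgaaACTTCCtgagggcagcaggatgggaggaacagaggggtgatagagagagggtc
Cyth4, chr15:78596947-78597046, plus strand: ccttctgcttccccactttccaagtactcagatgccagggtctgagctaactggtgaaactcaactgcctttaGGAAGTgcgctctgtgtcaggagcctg
Mrc1, chr2:14229164-14229263, plus strand: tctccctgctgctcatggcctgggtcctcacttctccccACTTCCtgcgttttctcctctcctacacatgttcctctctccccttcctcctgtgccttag
Siglech encodes a sialic acid binding lectin of resting microglia, Sall1 a zinc finger factor of microglial identity, C1qb a chain of C1q, Cyth4 an exchange factor for ARF GTPases, and Mrc1 the mannose receptor of border macrophages. Among these, Siglech belonged to the genes that were lowest in 1 control library described below, and the other 4 did not.

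The 34 genes covered a wide range of levels. Per kilobase of exon, Ctss, which encodes the lysosomal protease cathepsin S, was highest with a mean of 39.5 CPM per kb over the 20 libraries. C1qa and C1qb followed with 32.5 and 32.4 CPM per kb, and their ranges over libraries overlapped. Csf1r, the receptor on which microglial survival depends, had 17.7 CPM per kb, C1qc 14.7, the ADP receptor gene P2ry12 12.8 and the fractalkine receptor gene Cx3cr1 11 CPM per kb. These were the 7 genes above 10 CPM per kb, and the ranges of neighbours in this order overlapped except between C1qb, with 25.8 CPM per kb at its lowest, and Csf1r, with 21.6 at its highest. At the low end stood Cd163 with 1.03, Irf8, a transcription factor of the macrophage lineage, with 0.826, Mrc1 with 0.699 and Ptprc, the phosphatase carried by all leukocytes, with 0.289 CPM per kb. Of these, the ranges of Mrc1 and Ptprc did not overlap by this measure. The order depends on the length used. By the longest transcript, Ptprc (0.923 CPM per kb) lay above Mrc1 (0.828) and Irf8 had 1.68 CPM per kb. By that length C1qc (23.7 CPM per kb) also lay above Csf1r (21.8).

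The C1q genes varied little, and C1qa least of the 34. The 3 genes lie side by side on the minus strand of chromosome 4 (GRCm38), C1qb at chr4:136880129-136886187, C1qc at chr4:136889804-136893065 and C1qa at chr4:136895917-136898803. C1qa had 31.3, 33.3, 37.3, 33.4 and 28.7 CPM in susceptible males and 31.9, 37.8, 36.3, 33.9 and 33.5 CPM in male controls. In susceptible females it had 34.6, 35.6, 31.5, 29.5 and 36.3 CPM, and in female controls 27.3, 34.8, 37.9, 36.9 and 34.4 CPM. All 4 groups overlapped, and female control 1 was the lowest of the 20 libraries. The coefficient of variation over the 20 libraries was 8.96% for C1qa, 11.9% for C1qb and 13.8% for C1qc. It was 10.9% for Sall1, and highest at 46% for Cd163. Over the 34 genes the median was 19.6%, against 14.5% over all genes tested.

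One library stood apart for these genes before any comparison. Male control 5 was the lowest of all 20 libraries for 18 of the 34 genes and the highest for 1, Irf8. Over all genes tested, it was the lowest library for 11.9% of genes and the highest for 10.9%. These shares were 12.8% and 13.9% for susceptible female 1, and 11.8% and 12% for susceptible female 5. Roles differed in male control 5. Of the 10 genes for receptors and surface molecules of resting microglia, 9 were lowest there, and the median of their ratios to the median of the other 19 libraries was 0.495. The 2 secreted or enzymatic products, Olfml3, a secreted matrix protein, and Hpgds, a prostaglandin D2 synthase, had ratios of 0.44 and 0.438. None of the 3 C1q genes was lowest there, and their ratios were 0.845 to 0.973.

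Single genes show the pattern. Fcrls, an Fc receptor-like scavenger receptor typical of mouse microglia, had 19.2, 25.1, 22.3, 18.5 and 15.2 CPM in susceptible males and 21.1, 22.3, 26.5, 21.7 and 3.99 CPM in male controls. In susceptible females Fcrls had 18.7, 26.9, 18.2, 15.5 and 28.5 CPM, and in female controls 16.7, 21.8, 21.4, 21.1 and 28.5 CPM. Male control 5 was thus the 1 library below 15 CPM, at 0.186 of the median of the others. P2ry12 had 35.5, 31.9, 41, 29.6 and 21.2 CPM in susceptible males and 33.6, 28.5, 31.1, 30.8 and 10.7 CPM in male controls. In susceptible females P2ry12 had 34.1, 47.6, 34.2, 27.2 and 43.8 CPM, and in female controls 21.2, 34.1, 35.8, 41.2 and 39.4 CPM. Male control 5 was again lowest, and the groups overlapped. The ratio of male control 5 to the median of the others was 0.265 for Itgam, the integrin alpha M chain used as a macrophage marker, 0.311 for Gpr34, a lysophosphatidylserine receptor, and 0.338 for Slc2a5, a fructose transporter. It was 0.43 for Ly86, a partner of the toll-like receptor homologue CD180, 0.482 for Aif1, which encodes the microglial marker protein IBA1, and 0.526 for Cx3cr1.

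Other genes were level or high in the same library. Its ratio was 1.04 for Sall1, 1.08 for Csf3r, the receptor for G-CSF, 1.18 for Cd68, a lysosomal membrane protein of phagocytes, 1.27 for Lyz2, lysozyme of macrophages, and 1.96 for Cd163. Irf8 had 5.54, 5.27, 5.69, 4.94 and 3.95 CPM in susceptible males and 4.76, 6.43, 7.32, 5.28 and 8.67 CPM in male controls. In susceptible females Irf8 had 4.62, 6.96, 6.14, 5.62 and 8.07 CPM, and in female controls 3.52, 7.09, 6.96, 5.34 and 4.31 CPM. Male control 5 held the highest value, 1.56 times the median of the others.

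Genes outside the list also set male control 5 apart. Over all genes tested, this library was the highest for 10.9% and the lowest for 11.9%. Of 18 further complement components and receptors, 10 were higher there than in every other library and none was lower than in every other. C4b, a complement C4 gene, had 79.7 CPM in male control 5, against 31.2 to 56.2 CPM in the others, and C5ar1, the receptor for the fragment C5a, had 3.74 CPM, against 0.34 to 1.45 CPM. Of 25 genes for cytokines and the inflammasome, 7 were highest there, among them Ccl2, a chemokine for monocytes, with 0.998 CPM, against 0 to 0.198 CPM. All 14 oligodendrocyte genes were lowest there, with a sum of 3902 CPM, against 5071 to 10690 CPM in the others. All 5 red cell genes were lowest there too, with a sum of 1.25 CPM, against 31 to 130.3 CPM, and Hba-a2 and Hbb-bt at 0. Genes of choroid plexus and ependyma summed to 1893 CPM there, against 74.4 to 142.2 CPM in the other male controls. Those of cortex and hippocampus summed to 809.7 CPM, against 129.4 to 335.8 CPM. Neither sum was the highest of the 20 libraries, which was 2326 CPM in susceptible female 3 and 965.4 CPM in susceptible female 5. The part of these differences in the results below was not tested. Most results that rest on male controls and carry the comparisons are also given without male control 5.

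**Figure D1:**
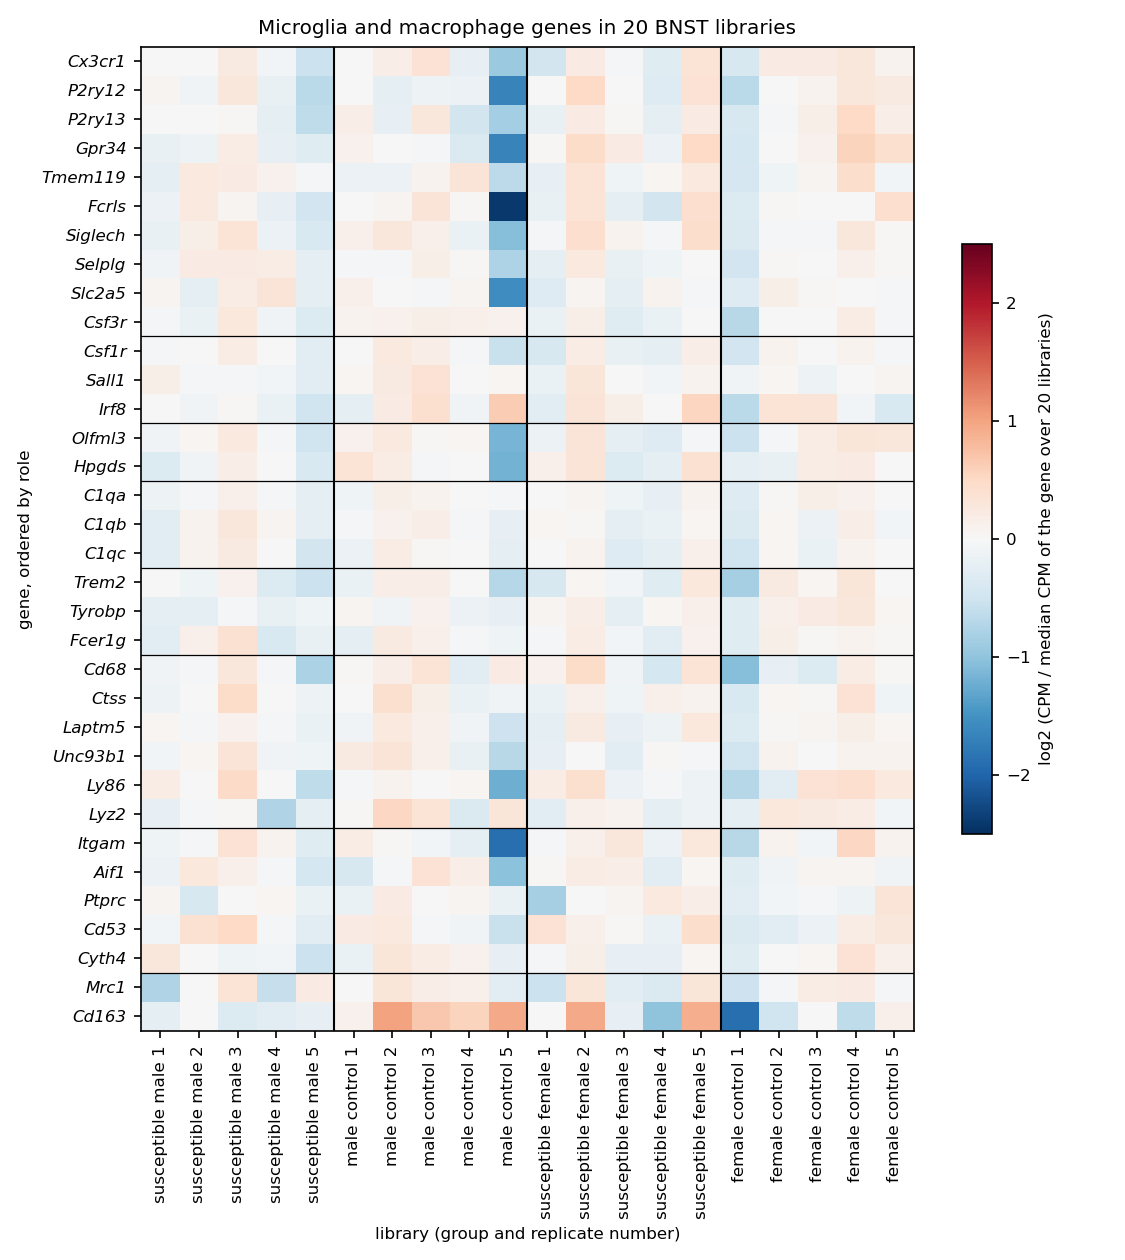
Level of the 34 genes (rows, grouped by role between the lines) in the 20 libraries (columns), as log2 of CPM over the median CPM of the gene across the 20 libraries, with blue for lower and red for higher. Male control 5 is blue for most receptors of resting microglia and red for Irf8 and Cd163, and female control 1 is below the median in every row.

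Female control 1 was low in another way. It was the lowest library for 10 of the 34 genes and for 9.65% of all genes tested. Its ratio to the median of the others was below 1 for all 34 genes, between 0.268 for Cd163 and 0.944 for Sall1. The ratios of C1qa, C1qb and C1qc were 0.793, 0.762 and 0.703, close to the median ratio of 0.74 of the receptors of resting microglia. The summed level of the 34 genes was 480.9 CPM in male control 5 and 502.9 CPM in female control 1, and 543.6 CPM in susceptible male 5, the next lowest. By group the sums ranged from 543.6 to 783.9 CPM in susceptible males, 480.9 to 766.5 CPM in male controls, 604.6 to 791.2 CPM in susceptible females and 502.9 to 777.3 CPM in female controls. All groups overlapped in this sum. Female control 1 also had the lowest sum of striatum genes of the 20 libraries, 648.7 CPM. Its sum of lateral hypothalamus genes, 291.8 CPM, was the highest. The part of these in its low levels was not tested. Leaving female control 1 out of the fit left 0 of the 34 genes called in every comparison.

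**Figure D2:**
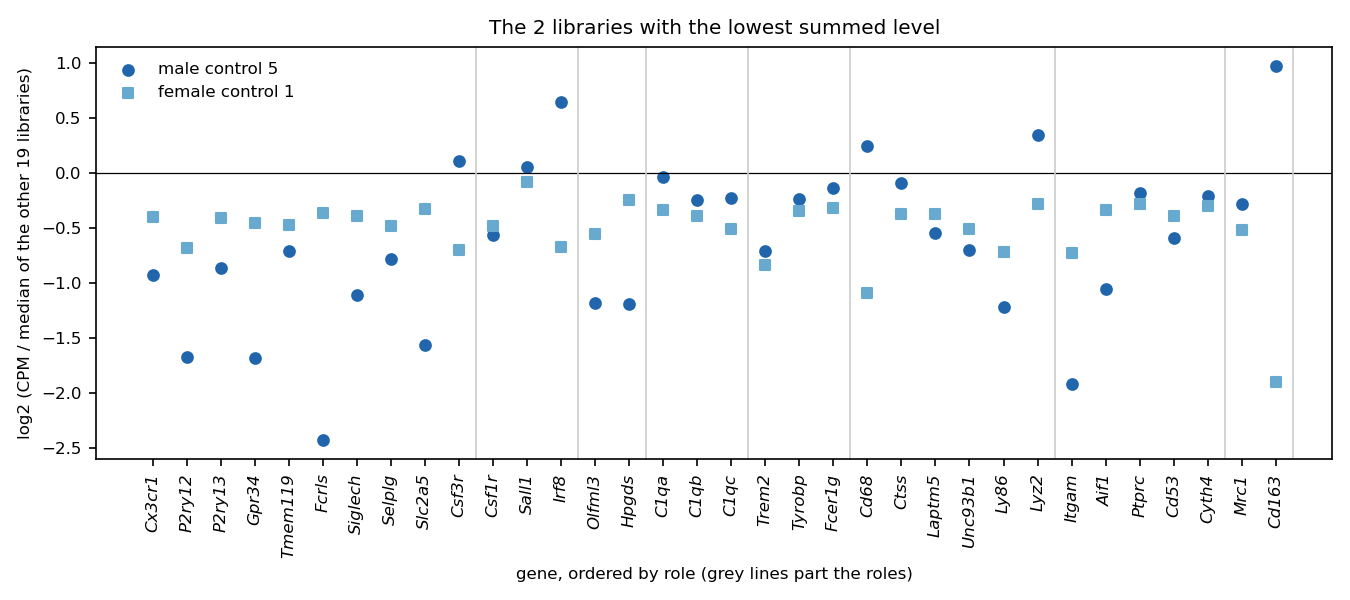
Level of each gene in male control 5 (circles) and female control 1 (squares) as log2 of CPM over the median of the other 19 libraries, with genes ordered by role. Male control 5 runs from a ratio of 0.186 for Fcrls to 1.96 for Cd163, while female control 1 is below the median of the others for all 34 genes.

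The genes varied together across libraries, more closely in some pairs than in others. Over the 20 libraries, log2 CPM of Cx3cr1 and Csf1r had a Pearson r of 0.92 and a Spearman rho of 0.86 (adjusted permutation p 4e-05 and 8e-05). In all 8 pairs were computed, p-values are 2-sided from 100000 resamples adjusted over the 8 by Benjamini-Hochberg, and 1e-05 is the smallest unadjusted p they can give. P2ry12 and P2ry13, 2 receptors for ADP whose genes lie near each other on chromosome 3, had r = 0.85 and rho = 0.81 (adjusted permutation p 4e-05 and 0.00016). C1qa had r = 0.77 and rho = 0.7 with C1qb and r = 0.84 and rho = 0.76 with C1qc, with adjusted permutation p of r of 0.000128 and 6e-05. Without the 2 libraries farthest from the median of the first gene, r was 0.9 for Cx3cr1 and Csf1r, 0.77 for P2ry12 and P2ry13, 0.65 for C1qa and C1qb and 0.71 for C1qa and C1qc. With group means subtracted the 4 values were 0.96, 0.86, 0.8 and 0.86.

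The other 4 pairs were these. Cx3cr1 and P2ry12 had r = 0.83 and rho = 0.72 (adjusted permutation p 6e-05 and 0.00132), and r = 0.63 without the 2 farthest libraries. Trem2, a lipid receptor, and Tyrobp, its ITAM adaptor, had r = 0.58 and rho = 0.62 (adjusted permutation p 0.0101 and 0.00613). Without the 2 farthest libraries their r was 0.42 (adjusted permutation p 0.0854), so this linear relation did not pass without them, while rho was 0.53 (adjusted permutation p 0.0313). Cx3cr1 and Mrc1 had r = 0.51 and rho = 0.59 (adjusted permutation p 0.0218 and 0.00728), and r = 0.72 without the 2 farthest. The 2 border macrophage receptors Mrc1 and Cd163 had r = 0.48 (adjusted permutation p 0.0325), while their rho of 0.38 did not pass (adjusted permutation p 0.101).

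**Figure D3:**
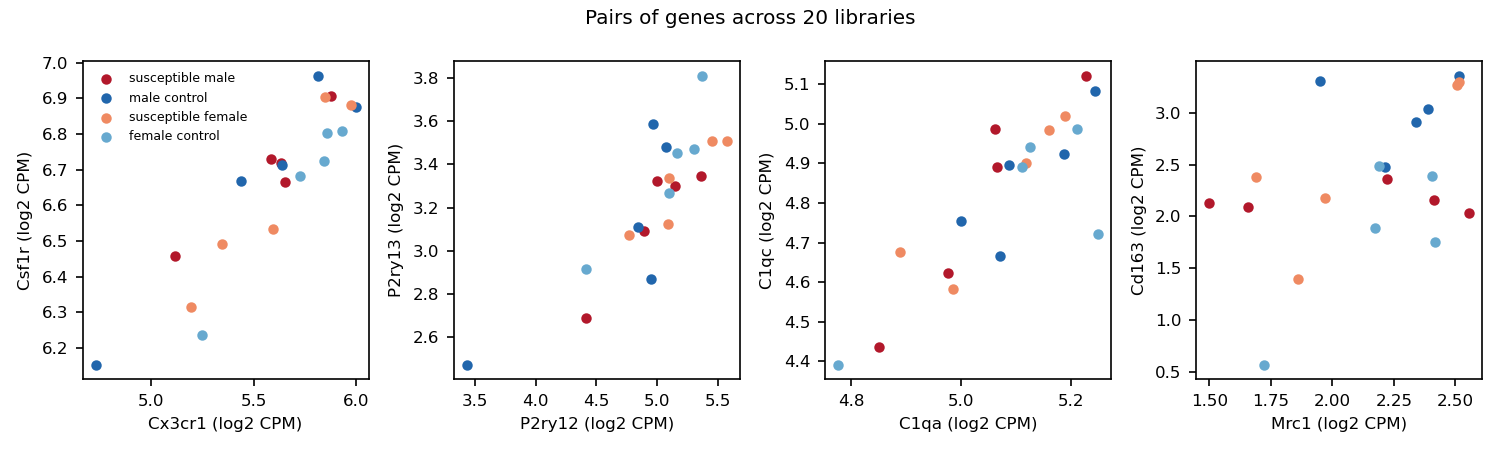
Levels of 4 pairs of genes in the 20 libraries as log2 CPM, coloured by group. Cx3cr1 and Csf1r (r = 0.92) follow each other closely, while Mrc1 and Cd163 (r = 0.48) spread widely. Cd163 of susceptible males lies between 3.98 and 5 CPM whatever the level of Mrc1, below male controls but within the range of female controls.

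As a description, over all 561 pairs of the 34 genes with group means subtracted, the median r was 0.6 and 550 were positive. Within the 10 receptors of resting microglia the median was 0.81, and 0.73 without male control 5. All pairs share the same libraries and their depth. Ptprc, Irf8 and Lyz2 had the lowest median r with the other 33 genes, 0.26, 0.29 and 0.29. Without male control 5 the median was 0.55 for Irf8, 0.42 for Lyz2 and 0.21 for Ptprc.

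The genes most like Cx3cr1 were sought among all 14883 other genes tested. Likeness was the Pearson r of log2 CPM over the 20 libraries after group means were subtracted. Among the 15 highest were Csf1r (0.961), Mpeg1 (0.927), Laptm5 (0.919), Siglech (0.916), Reep6 (0.908), Trem2 (0.907), Adgre1 (0.9), P2ry12 (0.888), Fgd2 (0.887), P2ry13 (0.885), Cd37 (0.881), Cd180 (0.878), Vmn2r57 (0.875) and Selplg (0.871). Laptm5 encodes a lysosomal protein of blood cells and Selplg a ligand of P-selectin, while Mpeg1, a pore-forming protein of macrophages, and Adgre1, the macrophage antigen F4/80, are not on the list. Of the 34 genes, 11 were among the 50 highest and 13 among the 100 highest. Without male control 5, 7 were among the 50 and 8 among the 100 highest, and Tbc1d9b led with 0.951, before Csf1r with 0.94. Rapgef4, Kcnd1, Gli3 and Osbp, none on the list, were then among the 15 highest, and so were Trem2, Mpeg1 and Laptm5. The gene at rank 100 had r = 0.786 without that library and 0.761 with it. The median r of the other 33 listed genes was 0.698 without that library, against -0.017 over all genes.

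In males, the comparison of susceptible mice with controls asked whether the stress model changed these genes, and most estimates lay close to 0. None of the 34 genes was called in susceptible males against male controls (edgeR, adjusted p under 0.05), against 0% of all 14884 genes tested, and the smallest adjusted p was 0.445. At an unadjusted p under 0.05 there were 3 of the 34, against 9.67% of all genes. All 3 were lower in susceptible males and none was higher, against 5.03% and 4.64% of all genes. They were Cd163, Lyz2 and Sall1. The groups did not overlap for 1 gene, Cd163, which was lower in susceptible males, against 0.994% of all genes lower and 1.44% higher without overlap. DESeq2 called none of the 34 and limma voom with quality weights called 2, Cd163 and Lyz2, against 0.0873% and 4.86% of all genes called by each tool.

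Cd163 encodes the scavenger receptor with which macrophages take up haemoglobin bound to haptoglobin, and it had the largest estimate. It had 4.25, 5, 3.98, 4.14 and 4.35 CPM in susceptible males, against 5.43, 10.1, 8.06, 7.4 and 9.79 CPM in male controls. Every susceptible male lay below every male control, with a gap between 5 CPM in susceptible male 2 and 5.43 CPM in male control 1. The log2 fold change was -0.91 ± 0.34 (95% interval -1.61 to -0.21, unadjusted p = 0.0137, adjusted p = 0.445 by edgeR). Without male control 5 it was -0.83 ± 0.36 (adjusted p = 0.548 by edgeR). Over the 32 alternative analyses the estimate ran from -1.02 to -0.69, and voom gave an adjusted p of 0.037. Mrc1, the other border macrophage receptor, had an estimate of -0.17 ± 0.22, or -0.245 without male control 5. Of 10 further border macrophage genes, 7 had estimates below 0 without male control 5. Their median was -0.14, against -0.01 over all genes tested.

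Lyz2 had 5.81, 6.59, 6.89, 4.01 and 5.66 CPM in susceptible males and 6.9, 9.59, 8.53, 5.28 and 8.36 CPM in male controls. The groups overlapped through male control 4. The log2 fold change was -0.42 ± 0.17 (unadjusted p = 0.0221, adjusted p = 0.463 by edgeR), -0.39 without male control 5, and -0.57 with an adjusted p of 0.0466 by voom. Lyz2 has a near-identical neighbour, Lyz1, and reads that the pair share cannot be separated here. Sall1 had 36.9, 32.2, 32.8, 32 and 27.5 CPM in susceptible males and 34.8, 39.1, 42.9, 33.3 and 34.7 CPM in male controls. The groups overlapped, and the log2 fold change was -0.20 ± 0.09 (unadjusted p = 0.0469, adjusted p = 0.511 by edgeR), and -0.22 without male control 5.

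Precision in males differed by role. For C1qa, C1qb and C1qc the estimates were -0.08, 0.00 and -0.04, and the intervals lay within -0.32 and 0.24. With male control 5 left out, these estimates were -0.09, -0.05 and -0.09. The standard error was 0.32 for Fcrls, 0.27 for Itgam and 0.25 for P2ry12, and Irf8 had an estimate of -0.35 ± 0.21. For 33 of the 34 genes, all but Cd163, the 95% interval lay within a 2-fold change in either direction, and for 23 it lay within a 1.5-fold change. Over the 34 genes the median estimate was 0.00, with 17 above and 17 below 0, and over all genes tested the median was -0.01. The single library mattered for this balance. Without male control 5, 28 of the 34 estimates were below 0 and the median was -0.11, with 0 genes called and the smallest adjusted p at 0.548. Over all genes tested the median in that fit was -0.009. The mean log2 CPM of the 34 genes had an SD of 0.242 within groups over the 20 libraries. Such counts of estimates are not counts of independent results, since the genes varied together across libraries.

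Examples from each role show the spread. Tmem119, a membrane protein that sets microglia apart from other macrophages, had 17.4, 24.3, 23.5, 22.2 and 19.8 CPM in susceptible males and 18.6, 18.6, 21.8, 25.6 and 13 CPM in male controls. Its groups overlapped, and the estimate was 0.13 ± 0.17, or 0.02 without male control 5. Csf1r had 102, 105, 120, 106 and 87.7 CPM in susceptible males and 105, 125, 117, 102 and 71 CPM in male controls, again with overlap, and its estimate was 0.00 ± 0.14, or -0.11 without male control 5. Fcer1g, an ITAM adaptor shared by Fc receptors, had an estimate of -0.04 ± 0.15, and Cd53, a tetraspanin of leukocytes, one of 0.15 ± 0.18. Trem2 had -0.08 ± 0.20 and Tyrobp -0.11 ± 0.12. The 4 estimates without male control 5 were -0.07, 0.04, -0.20 and -0.15. Unc93b1, which carries nucleic acid sensing toll-like receptors to endosomes, had 14.7, 16, 19.3, 14.5 and 14.2 CPM in susceptible males and 17.9, 19.4, 16.8, 13.5 and 9.54 CPM in male controls. Male control 5 was the lowest of the 20 libraries for Unc93b1, and the groups overlapped.

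Lists of other cells are given for the same comparison. Of 14 genes of meninges and fibroblasts, 12 had estimates below 0, 6 of them with an unadjusted p under 0.05, against 5.03% of all genes lower at this level, and their median was -0.44. Leaving out male control 5 gave 12 and 5, with a median of -0.43. Their sums were 53.3 to 91.2 CPM in susceptible males and 77.3 to 121.2 CPM in male controls, and no marker was at 0 in any library. Of 19 genes of endothelial cells and pericytes, 15 had estimates below 0, with a median of -0.26. Without male control 5, 16 were below 0, with a median of -0.25. Sums of the 19 were 478.6 to 703.9 CPM in susceptible males and 461.5 to 735.3 CPM in male controls. All 14 oligodendrocyte genes had estimates above 0, with a median of 0.34, and 13 had without male control 5, with a median of 0.25. None of these genes was called, and their part in the values of Cd163 was not tested.

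**Figure D4:**
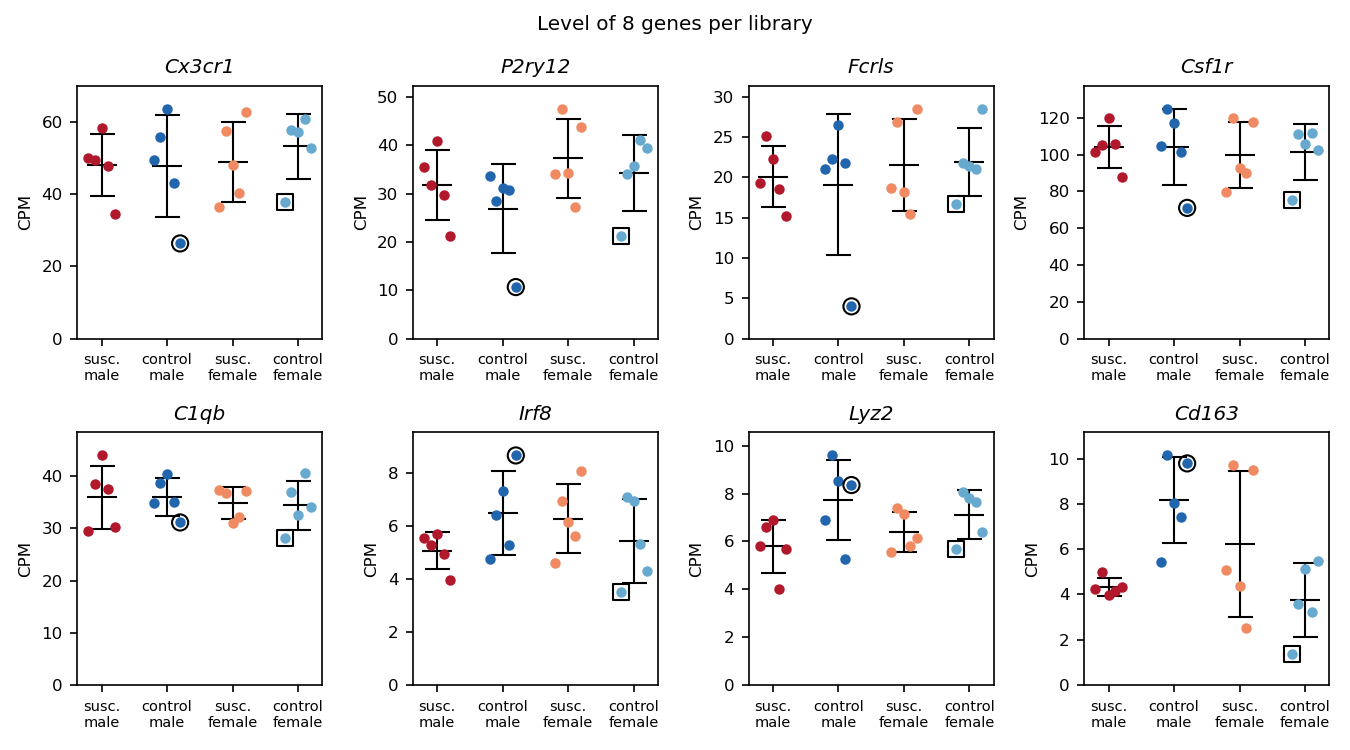
CPM per library of 8 genes in susceptible males, male controls, susceptible females and female controls (points, 5 libraries each, with bars for the mean and SD). Circles ring male control 5 and squares female control 1. Cd163 of susceptible males lies between 3.98 and 5 CPM, below all male controls, while the groups overlap for the other 7 genes.

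In females the same comparison gave estimates near 0 for most of the 34 genes, with Cd163 farthest from it. None was called (edgeR, adjusted p under 0.05), against 0% of all genes tested, and the smallest adjusted p was 0.774. DESeq2 and voom also called none. At an unadjusted p under 0.05 there was 1 of the 34, Cd163, against 5.85% of all genes. It was higher in susceptible females, against 3.12% of all genes higher and 2.73% lower. No gene of the 34 had groups without overlap, against 0.316% of all genes higher and 0.141% lower. Over the 34 genes the median estimate was 0.00, with 16 above and 18 below 0, and over all genes tested it was 0.01.

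Cd163 had 5.08, 9.7, 4.39, 2.5 and 9.52 CPM in susceptible females, against 1.36, 3.57, 5.11, 3.24 and 5.48 CPM in female controls. Susceptible females 2 and 5 were high, female control 1 was low, and the groups overlapped. The log2 fold change was 0.73 ± 0.34 (95% interval 0.02 to 1.44, unadjusted p = 0.0434, adjusted p = 0.774 by edgeR). Leaving out each library in turn gave 0.51 to 0.94, and all 32 alternative analyses gave 0.31, with a striatum minus thalamus score as covariate, to 1.1, when the 7 libraries with more than 100 CPM of Ttr were left out. Leaving out female control 1 gave 0.52 (adjusted p = 0.987 by edgeR). Mrc1 averaged 4.31 ± 1.18 CPM in susceptible females and 4.47 ± 0.83 CPM in female controls (SD, n = 5 each). Of the 10 further border macrophage genes, 8 had estimates below 0 in the fit without male control 5. Their median was -0.12, against 0.01 over all genes tested. Cx3cr1 had 36.4, 57.5, 48.2, 40.5 and 62.8 CPM in susceptible females and 37.9, 57.8, 57.2, 60.8 and 52.7 CPM in female controls. Its groups overlapped, and its estimate was -0.12 ± 0.20 (95% interval -0.54 to 0.30). Csf1r had 79.5, 120, 92.6, 89.8 and 118 CPM in susceptible females and 75.2, 111, 106, 112 and 102 CPM in female controls. These groups overlapped too, with an estimate of -0.02 ± 0.15. Cd68 had 10.3, 13.1, 8.96, 7.01 and 12 CPM in susceptible females and 4.54, 8.3, 7.5, 10.8 and 9.66 CPM in female controls. Female control 1 was the lowest of all libraries, the groups overlapped, and the estimate was 0.33 ± 0.22. The interval lay within a 2-fold change for all of the 34 but Cd163 and within a 1.5-fold change for 26.

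Averaged over both sexes, none of the 34 genes was called (edgeR, adjusted p under 0.05), against 0% of all genes tested, and DESeq2 and voom called none, against 0.047% and 0% of all genes. Lyz2 alone had an unadjusted p under 0.05, against 7.71% of all genes, and was lower, with a log2 fold change of -0.28 ± 0.12 (unadjusted p = 0.0263, adjusted p = 0.604 by edgeR), against 3.49% of all genes lower and 4.22% higher at this level. The interval of the mean effect lay within a 2-fold change for all 34 genes and within a 1.5-fold change for 33. Without male control 5 the estimate of Lyz2 was -0.27 (unadjusted p = 0.0425, adjusted p = 0.655 by edgeR), the smallest adjusted p of the 34. In that fit 24 of the 34 estimates were below 0, with a median of -0.05, against -0.004 over all genes tested.

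The stress estimate in females minus that in males tests whether the sexes differ. None of the 34 genes was called (edgeR, adjusted p under 0.05), against 0% of all genes tested, and DESeq2 and voom called none. Cd163 alone had an unadjusted p under 0.05, against 8.26% of all genes, and against 4.64% of all genes with a higher and 3.62% with a lower value at this level. Its difference was 1.64 ± 0.48 (95% interval 0.64 to 2.64, unadjusted p = 0.00268, adjusted p = 0.587 by edgeR), and 1.57 without male control 5 (adjusted p = 0.598 by edgeR). Over the alternative analyses it ran from 0.99, with the region score as covariate, to 2.00, without the libraries high in Ttr. The estimates of the sexes had opposite signs for this gene, and the difference did not pass over all genes. For Mrc1 the difference was 0.115 ± 0.31. Of the 34 estimates 20 were above 0, and 31 without male control 5, when the median was 0.10 in place of 0.01. Over all genes tested the median was 0.01 with and without that library.

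**Figure D5:**
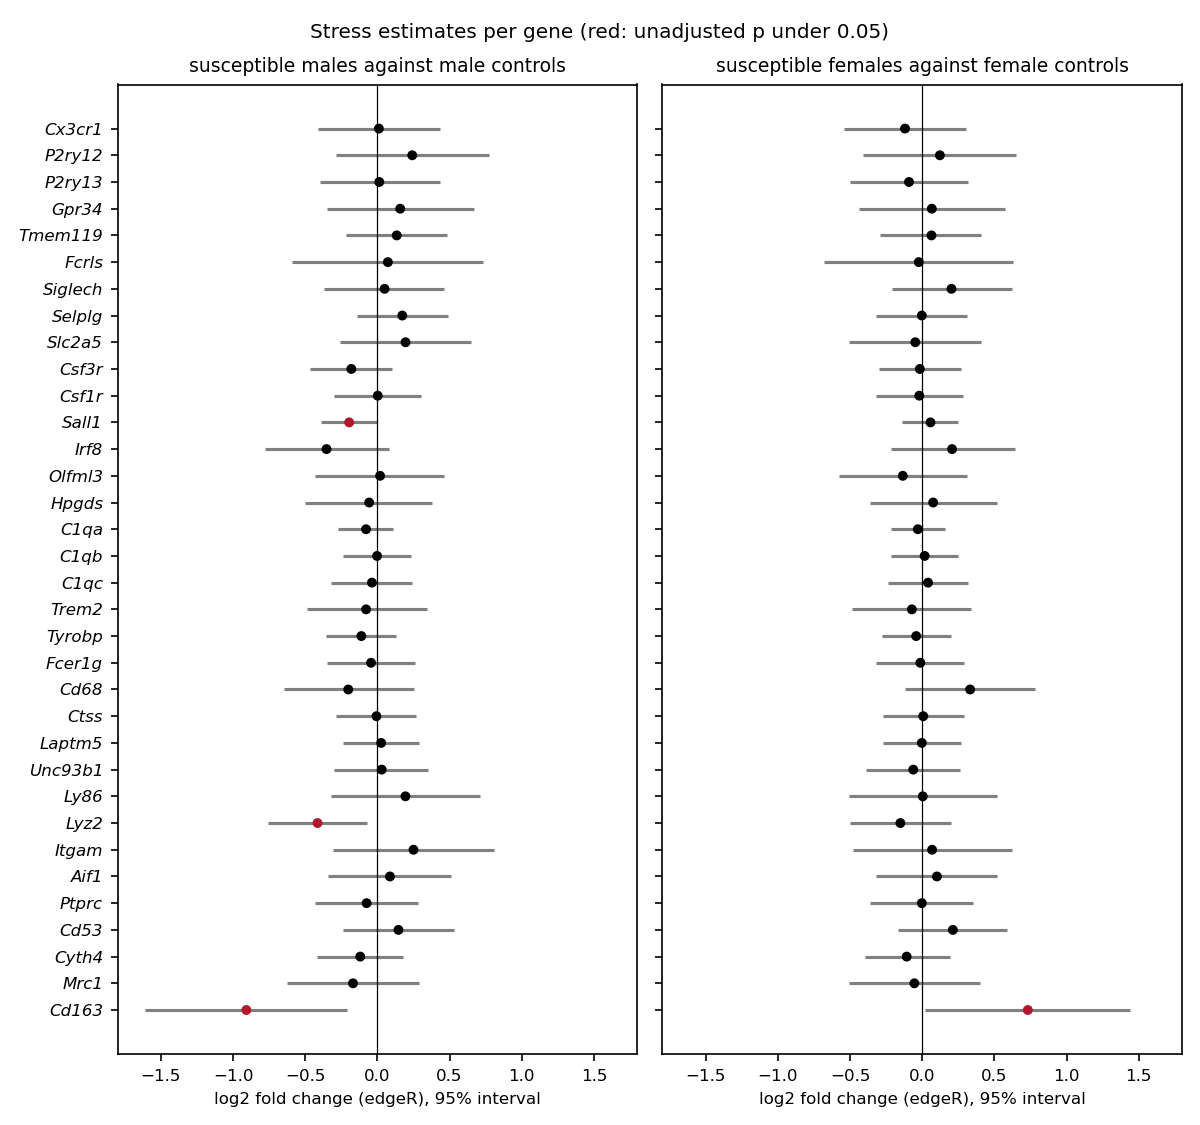
Log2 fold change (edgeR, points) with its 95% interval (lines) for the 34 genes in susceptible males against male controls and in susceptible females against female controls, with genes of unadjusted p under 0.05 in red. Cd163 is lower in susceptible males (-0.91) and higher in susceptible females (0.73), and neither passes adjustment over all genes.

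Between the sexes, Cd163 again had the largest estimate in controls, higher in males. None of the 34 was called in male controls against female controls (edgeR, adjusted p under 0.05), against 0.511% of all genes tested, and the smallest adjusted p was 0.117. At an unadjusted p under 0.05 there was 1 of the 34, Cd163, against 19.2% of all genes. It was higher in male controls, against 10.4% of all genes higher and 8.84% lower. No gene had groups without overlap, against 2.32% of all genes higher and 1.57% lower without overlap. DESeq2 called 1 of the 34, Cd163, and voom called 2, Cd163 and Sall1, against 3.06% and 22.4% of all genes called by each tool.

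For Cd163 the log2 fold change of male controls over female controls was 1.12 ± 0.34 (95% interval 0.42 to 1.83, unadjusted p = 0.00347, adjusted p = 0.117 by edgeR). Its 5.43 CPM in male control 1 lay within the range of female controls, and the other 4 male controls lay above all 5 female controls. DESeq2 gave the same estimate with an adjusted p of 0.036, and voom gave 1.24 with an adjusted p of 0.00776. Without male control 5 the edgeR estimate was 1.05 (adjusted p = 0.183), with 0.154% of all genes called. Mrc1 had an estimate of 0.10 ± 0.22. Of the 10 further border macrophage genes, 8 had estimates above 0 without male control 5, with a median of 0.10. This comparison and that of susceptible males with male controls share the male controls. Markers of vessels moved with it: of 19 genes of endothelial cells and pericytes 18 had estimates above 0, and Pecam1, Vwf, Slc2a1 and Ly6c1 were called, 4 genes against 1 without male control 5. Their sums were 461.5 to 735.3 CPM in male controls and 446.2 to 500.4 CPM in female controls, no marker was at 0 in any library, and their part in the value of Cd163 was not tested. All 14 oligodendrocyte genes had estimates below 0, and Ermn (-0.83) and Gjc3 (-0.66) were called. Without male control 5, all 14 were still below 0 and 0 were called. With all libraries, sums of the 14 averaged 5659 ± 1391 CPM in male controls and 8919 ± 1761 CPM in female controls (SD, n = 5 each). Genes of striatum summed to 4396 ± 1108 CPM in male controls and 2285 ± 1104 CPM in female controls, and those of thalamus to 476.1 ± 220.5 CPM in male controls and 1121 ± 601.8 CPM in female controls. With the score of striatum minus thalamus as covariate the estimate of Cd163 was 0.60 (adjusted p = 0.52 by edgeR). Of the 34 estimates 15 were above 0, and 27 without male control 5, when the median was 0.07 in place of -0.02. Over all genes tested these medians were -0.009 and -0.003. With the region score as covariate 6 of the 34 had an unadjusted p under 0.05, and P2ry12 had the smallest adjusted p, 0.398 (edgeR). With 1 surrogate variable 3 did, with Gpr34 at 0.397 (edgeR). The share of all genes at this level is not given for these fits. Over the 32 alternative analyses the median of the 34 ran from -0.225 to 0.095.

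In susceptible males against susceptible females none of the 34 genes was called (edgeR, adjusted p under 0.05), against 0.047% of all genes tested, and DESeq2 and voom called none, against 0.101% and 0.0672% of all genes. The count without male control 5 was also 0, against 0.0602% of all genes. None had an unadjusted p under 0.05, against 6.28% of all genes, 3.26% higher and 3.02% lower. None had groups without overlap, against 0.383% of all genes higher and 0.396% lower. The smallest p was 0.104, for Tyrobp, with -0.20 ± 0.12. Tyrobp had 5.27, 5.27, 5.94, 5.37 and 5.66 CPM in susceptible males and 6.47, 6.9, 5.17, 6.35 and 6.71 CPM in susceptible females. Susceptible female 3 lay below all susceptible males, and the other 4 lay above them. Cd163 had an estimate of -0.52 ± 0.34 here. Of the 34 estimates 26 were below 0, with a median of -0.04, against -0.02 over all genes tested.

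Lists of further genes of the same cells were read in the same fit. The 8 lists were maintenance signals of CSF1R and TGF-beta, further genes of resting microglia, complement, genes of disease-associated microglia, border macrophages, neuronal ligands and brakes of microglia, cytokines and the inflammasome, and toll-like receptors carried by UNC93B1. They held 15, 24, 14, 19, 10, 13, 13 and 5 tested genes. In all, 109 genes were tested. In the 4 stress contrasts edgeR and DESeq2 called none of them, and voom called 1, Serping1, in susceptible males against male controls (0.917%, against 4.86% of all genes). At an unadjusted p under 0.05 edgeR gave 5 of the 109 in females (4.59%, against 5.85% of all genes) and 7 in males (6.42%, against 9.67%). It gave 9 for the mean (8.26%, against 7.71%) and 1 for the difference (0.917%, against 8.26%). Between male and female controls 2 were called, Ch25h and Nfkbia, both higher in male controls. They were 1.83% of the 109, against 0.511% of all genes, and both were also called without male control 5. DESeq2 called 3, Cd59a, Nfkbia and Nt5e (2.75%, against 3.06% of all genes), and voom called 25 (22.9%, against 22.4%). DESeq2 set no adjusted p for Ch25h there. In susceptible males against susceptible females edgeR and voom called none of the 109, with 3 at an unadjusted p under 0.05 by edgeR, and DESeq2 called 2, Ch25h and Nfkbia.

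Ch25h, which makes 25-hydroxycholesterol and is listed with disease-associated microglia, had 4.52, 1.64, 1.41, 1.66 and 0.249 CPM in male controls. In female controls it had 0.113, 0.173, 0.0663, 0 and 0.123 CPM. No libraries overlapped, and male control 5 was the lowest male control. The log2 fold change was 4.18 ± 0.68 (adjusted p = 0.0109 by edgeR), a size that depends on the few counts of the female libraries. Susceptible males had 0.405, 1.45, 0.443, 0.988 and 1.78 CPM and susceptible females 0.066, 0.124, 0.12, 0.111 and 0.0721 CPM. These groups did not overlap, and the log2 fold change of 3.24 ± 0.71 did not pass (adjusted p = 0.26 by edgeR), while without male control 5 it did (adjusted p = 0.0428 by edgeR). Nfkbia, the inhibitor of NF-kappa B, averaged 22.8 ± 3.42 CPM in male controls and 15.3 ± 0.511 CPM in female controls (SD, n = 5 each), without overlap (0.58 ± 0.10, adjusted p = 0.0162 by edgeR). In susceptible mice it averaged 23.2 ± 3.27 CPM in males and 16.9 ± 0.937 CPM in females, again without overlap, and did not pass (0.46 ± 0.10, adjusted p = 0.26 by edgeR). Neither gene is particular to microglia, and the vessel markers named above were also higher in male controls.

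The gene with the smallest unadjusted p of each list is given as a value, since none of these passed adjustment by edgeR. In susceptible males against male controls they were Cebpa (-0.23), Rgs10 (0.41), C4b (-0.49), Gpnmb (-0.67), Siglec1 (-0.96), Cd47 (0.15), Tlr2 (-0.86) and Tlr5 (-0.30), in the order of the lists. Of these, Cebpa, C4b, Gpnmb and Tlr2 were highest of all libraries in male control 5 and Rgs10 was lowest there. Without that library the 8 estimates were -0.15, 0.27, -0.30, -0.43, -0.98, 0.12, -0.41 and -0.45, in the same order. In susceptible females against female controls they were Irf5 (-0.41), Itgb5 (-0.16), Serping1 (-0.29), Csf1 (-0.31), Cd36 (-0.99), Cd47 (0.22), Tlr4 (0.56) and Tlr9 (-0.25). Cd47, the signal by which cells hold off phagocytes, was the gene of its list in both sexes, with an unadjusted p of 0.00381 in females and 0.0445 in males. Its mean over both sexes was 0.18 ± 0.05 (adjusted p = 0.576 by edgeR).

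For the mean over both sexes the genes were Csf1 (-0.22, on 2 lists), Rgs10 (0.31), Serping1 (-0.47), F13a1 (-0.34), Cd47 (0.18), Tlr4 (0.44) and Tlr3 (-0.09). For the difference, female minus male, they were Cebpa (0.33), Itgb5 (-0.18), Cd59a (-0.84), Gpnmb (0.93), Cd36 (-1.37), Nt5e (0.82), Casp1 (0.56) and Tlr5 (0.38). In male controls against female controls, besides the called genes, they were Cebpa (0.28), Lpcat2 (-0.40), Cd59a (-1.15), Siglec1 (1.21), Nt5e (1.13) and Tlr13 (0.59). Of these, DESeq2 called Cd59a and Nt5e, and voom called both along with Lpcat2 and Siglec1. In susceptible males against susceptible females, besides Ch25h and Nfkbia, the genes were Nrros (0.67), Ptgs1 (0.36), Cd55 (-0.32), Stab1 (0.26), Cd24a (-0.40) and Tlr13 (0.50). Siglec1 is the sialoadhesin of border macrophages, and its adjusted p by edgeR was 0.145 between the controls and 0.465 in males.

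Some of the counts may mix genes. An exon of Cx3cr1 overlaps the antisense gene Gm33858, P2ry12 overlaps Med12l on the opposite strand, Csf1r overlaps Hmgxb3 on the opposite strand, and Itgam overlaps Gm49368 on the same strand. The sources used here do not state whether reads were counted by strand, so the levels of these 4 genes are uncertain to that extent.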

How the data were processed

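Polyadenylated RNA of the BNST was sequenced in 20 libraries on an Illumina instrument, per the labels' protocols. The authors deposited raw gene counts, 1 table per library, and the submitters' processing notes name HISAT2, featureCounts and the mm10 assembly. Their versions, the annotation and the strand setting: not given in the sources used here. Groups and replicate numbers came from the sample titles. Symbols, positions and exon lengths came from GENCODE release M21 on GRCm38 by identifier (19206 of 19214 genes, with 0.0026% of counts in the 8 others), and promoter windows from RefSeq.

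Counts were filtered with filterByExpr, which left 14884 genes, scaled by TMM and modelled with a mean for each of the 4 groups in edgeR 4.0.16 (robust quasi-likelihood, R 4.3.3). P-values were adjusted over all genes by Benjamini-Hochberg (threshold 0.05). Standard errors were derived from the fold change and its F statistic, and 95% intervals use the t quantile of the fit's degrees of freedom. Log2 CPM used a prior count of 2. Depth was 14637636 to 17862840 counts per library, which leaves genes under 1 CPM with few counts. The code was tested on simulated data.

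Alternatives were DESeq2 size factors, the DESeq2 1.42.0 Wald test, no filter, at least 1 CPM in 5 libraries, limma 3.58.1 voom with quality weights, 1 surrogate variable (sva 3.50.0), a replicate block, only the 2 groups compared, offsets for GC content and length (mgcv 1.9.3), a region covariate, leaving out libraries over 100 CPM of Ttr or 1 CPM of Pmch, and leaving out each library. The correlations and the genes most like Cx3cr1 without male control 5 were added after seeing the data. Members and lists were chosen with earlier results of these data known. In each comparison the genes named were members with an adjusted p under 0.05, then those with an unadjusted p under 0.05 (at most 6), companion genes that were called or had the smallest p of their list, and the 15 genes most like Cx3cr1, of which 1 is not reported here. Genes shown for the pattern of male control 5, the examples from each role, Tyrobp and the genes outside the lists were picked after their values were seen.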

Additional observations from a re-analysis of the deposited data

Results flagged for a closer look

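In 11 of 136 combinations of gene and group, the highest or the lowest of the 5 libraries lay far from the others: its gap to the nearest divided by the range of the group was above 0.71. Chance alone gives about 1 in 20 such combinations, and the genes are not independent. In male control 5, 6 genes were far below the other male controls: P2ry12 with 10.7 CPM, Fcrls with 3.99 CPM, Selplg with 16.5 CPM, Slc2a5 with 1.81 CPM, Olfml3 with 7.48 CPM and Ly86 with 3.18 CPM. In female control 1, 4 genes were far below the other female controls: Selplg with 20.3 CPM, Csf1r with 75.2 CPM, Laptm5 with 29.8 CPM and Unc93b1, a carrier of toll-like receptors, with 10.9 CPM. In susceptible male 3, Ctss with 72.2 CPM was far above the other susceptible males.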

How the results depend on the processing

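The number of the 34 genes called was 0 in all 6 comparisons by edgeR, and it stayed 0 in every alternative but 3. Limma voom with quality weights called 2 in susceptible males against male controls and 2 in male controls against female controls, and the DESeq2 Wald test called 1 in male controls against female controls. Leaving out each library in turn gave 0 called in every comparison (lowest 0, highest 0). No estimate of the genes with full statistics changed sign. Whether replicate numbers pair the samples was not settled, since only libraries of the same number were compared. The correlation of their deviations was over 0.1 in 2, 3, 2 and 1 of 5 pairs in the 4 comparisons of groups. It reached 0.642 in susceptible females against female controls. The replicate block gave 0 of the 34 called, with Cd163 at an adjusted p of 0.0671 between controls by edgeR. Over all genes it called 110 between controls, against 76 in the main fit. Trem2 and Tyrobp had r = 0.42 without the 2 farthest libraries, against 0.58 with them. By the length of the longest transcript, 10 genes were above 10 CPM per kb, against 7 by all exons. The cause of these changes was not tested. With 5 libraries a group, a standard error of 0.34 for Cd163 leaves its interval wide, while those of the C1q genes are narrow.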
